A study of Mus musculus with 2 samples.

Results

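The 10 genes described here encode secreted cytokines and killing proteins through which immune cells act on endothelial cells (ECs) and tumor cells. They are *Ifng*, *Tnf*, *Ifnb1*, *Il2*, *Il10*, *Gzmb*, *Gzma*, *Gzmk*, *Prf1* and *Fasl*, chosen by name and not by their values from the 32285 genes of the count matrices, and UMIs of all 10 were found in both libraries. The data are 1 control and 1 Dnmt1iECKO library of 10x Genomics 3′ single-cell RNA-seq, made from CD31+/CD45- cells that were sorted from tumors of YUMMER1.7, a mouse melanoma line with a high mutational burden. Each library pooled the tumors of 3 female mice aged 8 to 10 weeks. The Dnmt1iECKO mice carried Cdh5CreERT2, Dnmt1fl/fl and ZsGreenlsl/lsl, so that tamoxifen, given ahead of the tumor cells, removes the DNA methyltransferase *Dnmt1* only where the *Cdh5* promoter is active, which is in ECs. The labels call the control C57BL/6, whereas the methods of the study describe controls that carry the same Cre and ZsGreen reporter without the floxed allele. The labels place the tumors under the skin of the shoulder, and the methods place them in the lung after tail vein injection. The leukocytes described here are those that escaped a gate against CD45, so their number does not reflect the number in the tumor.

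As background, IFNγ from T and NK cells binds the receptor of *Ifngr1* and *Ifngr2* and induces chemokines and antigen presentation in ECs, and TNFα, mostly from macrophages, induces adhesion molecules through *Tnfrsf1a* and *Tnfrsf1b*. Cytotoxic lymphocytes kill by perforin, which opens the target membrane to granzymes, and by FasL, which engages the death receptor *Fas*. IL-2 sustains T cells, IL-10 restrains macrophages and T cells, and IFNβ is the type I interferon that sensing of nucleic acids sets off.

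The control library had 9301 cells and the Dnmt1iECKO library 9522, with 123830489 and 141433493 UMIs and medians of 8904 and 8762 per cell. After filtering, clusters with *Ptprc* (CD45) in most cells held 15.7% of 7764 control cells and 55.0% of 7839 Dnmt1iECKO cells. In ECs, *Dnmt1* stood at 50.2 UMIs per 1000000 UMIs (CPM) in the control and 26.7 in the Dnmt1iECKO library, and in the 5 immune classes below it was between 39.1 and 120 in the control and between 39.9 and 153 in the Dnmt1iECKO library. The libraries shared 29 cell barcodes. Median depth was 10375.5 and 10303.5 UMIs in CD8+ T cells, 6419 and 6489 in NK cells and 31584.5 and 27666 in C1q macrophages.

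A total of 5 immune classes were gated on marker UMIs within leukocyte clusters. CD8+ T cells numbered 156 in the control and 626 in the Dnmt1iECKO library, CD4+ T cells without *Foxp3* 102 and 407, *Foxp3*+ T cells 30 and 88, NK cells (*Ncr1* or *Klrb1c* without *Cd3e*) 52 and 159, and C1q macrophages 184 and 441. Among markers outside the gates, *Klre1* was found in 92.3% and 91.8% of NK cells and *Ctla4* in 100% and 100% of *Foxp3*+ T cells. *Ctla4* was also found in 72.4% and 59.7% of CD8+ and 65.7% and 66.8% of CD4+ T cells, so it does not set the class apart. Other markers were found in fewer cells, with *Eomes* in 63.5% and 74.8% of NK cells and *Il2ra* in 70% and 85.2% of *Foxp3*+ T cells. Of the T cell genes in the gate, *Cd3e* was found in 96.8% and 97.6% of CD8+ T cells. The macrophage gene *C1qa* was found in 0.641% of control and 5.91% of Dnmt1iECKO CD8+ T cells, and the EC gene *Cdh5* in 7.05% and 2.72%. In the same CD8+ T cells, *Klrb1c* of the NK gate was found in 1.28% and 5.11%, and *Klre1* in 23.7% and 32.7%. The part of these differences in the results below was not tested. Outside the lymphoid clusters, the literal NK gate also took 25 control and 99 Dnmt1iECKO cells of macrophage-like clusters, which were left out.

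Levels are UMIs of a gene summed over the cells of a class and scaled to CPM of all UMIs there, and differences are log2 of the Dnmt1iECKO level over the control level. Brackets hold exact 95% intervals, which cover counting error only. With 1 library per condition there were no replicates and no difference has a test. A share of cells is given after thinning each cell to 2000 UMIs, and at full depth where stated. Where a gene had no UMI in a class, 3 counts give the level that could have been missed.

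**Figure D1:**
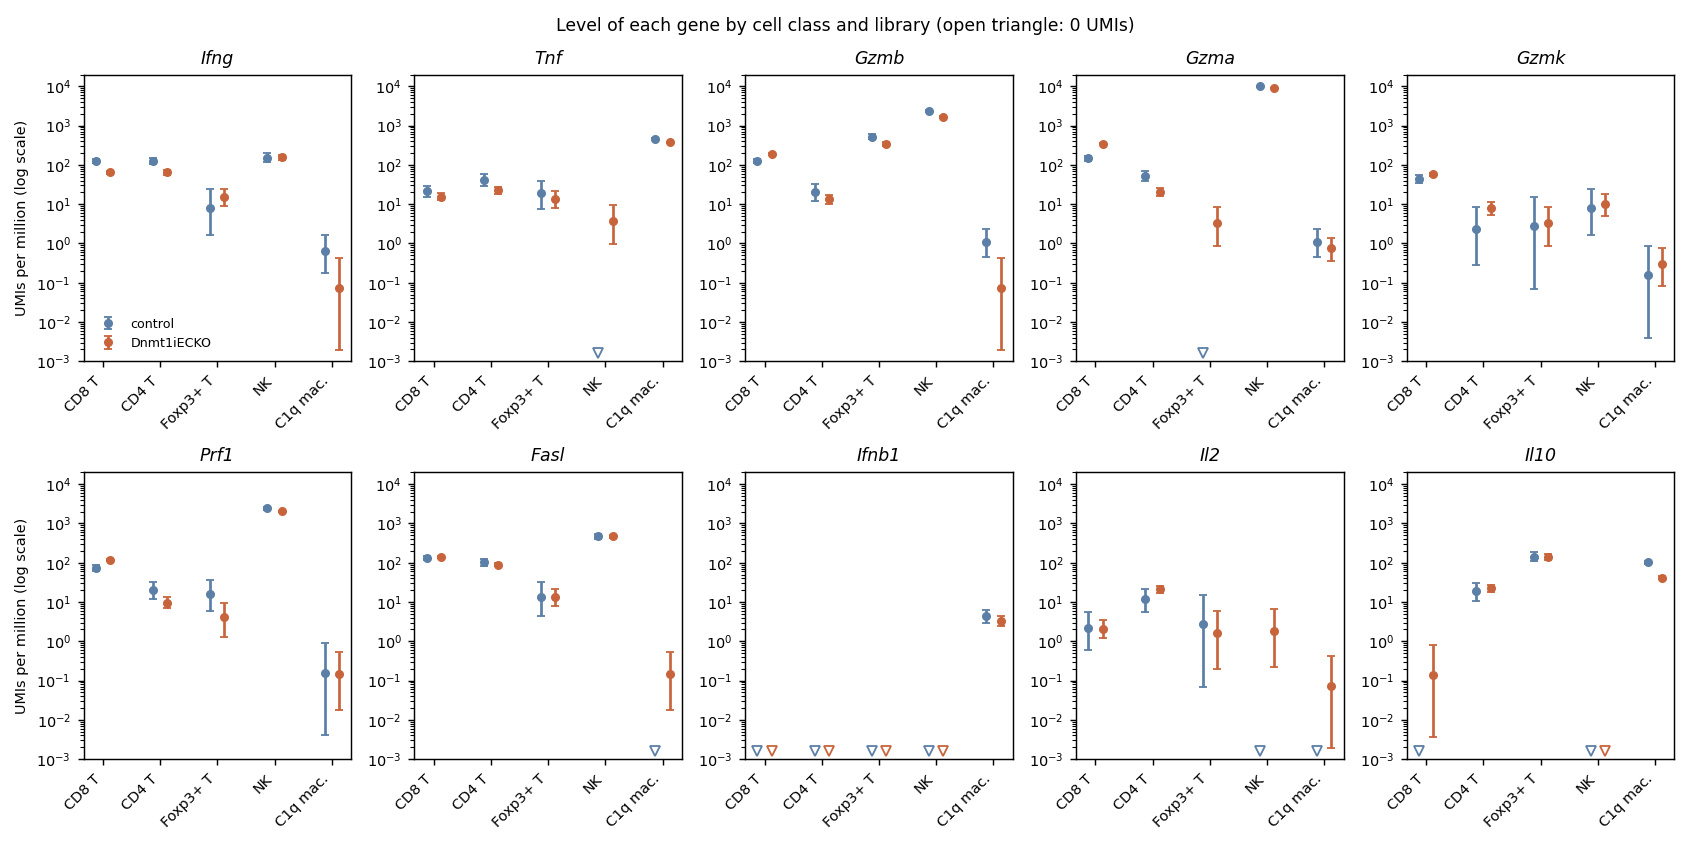
Level of each of the 10 genes in the 5 immune classes as CPM on a log axis, with the control and Dnmt1iECKO libraries as separate points, exact 95% intervals as bars and open triangles at the bottom for 0 UMIs. The granule genes *Gzmb*, *Gzma* and *Prf1* stood highest in NK cells, *Tnf* and *Ifnb1* in C1q macrophages, *Gzmk* in CD8+ T cells and *Il10* in *Foxp3*+ T cells.

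The proximal promoters of 5 of these genes are shown, since their levels below set T and NK cell genes apart from the macrophage gene *Tnf*. They are the 150 bases before the RefSeq start on the strand of the gene in GRCm38.p6, where the promoter table held 9 of the 10 genes. Capitals mark matches, on either strand, to TATAAA, the TATA box, to GGAAAA, the core of NFAT sites, to TGTGGT, the core of RUNX sites, to the AP-1 motif TGANTCA and to the motif of interferon regulatory factors, which is GAAA, any 2 bases and GAAA.
*Ifng*, chr10:118440896-118441045, forward strand: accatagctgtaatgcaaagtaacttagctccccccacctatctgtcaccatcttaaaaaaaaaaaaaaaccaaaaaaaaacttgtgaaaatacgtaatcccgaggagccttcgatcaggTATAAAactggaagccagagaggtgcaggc
*Tnf*, chr17:35202008-35202157, reverse strand: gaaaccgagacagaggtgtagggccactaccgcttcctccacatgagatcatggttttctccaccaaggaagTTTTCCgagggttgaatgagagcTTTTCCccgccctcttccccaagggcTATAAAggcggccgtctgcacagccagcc
*Gzmb*, chr14:56262335-56262484, reverse strand: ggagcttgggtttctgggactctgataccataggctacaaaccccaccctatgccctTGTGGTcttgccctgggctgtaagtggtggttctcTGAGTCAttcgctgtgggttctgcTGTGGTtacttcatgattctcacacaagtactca
*Gzma*, chr13:113100982-113101131, reverse strand: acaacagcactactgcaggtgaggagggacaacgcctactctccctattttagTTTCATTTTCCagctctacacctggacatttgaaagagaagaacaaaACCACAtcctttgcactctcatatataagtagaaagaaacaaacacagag
*Prf1*, chr10:61297686-61297835, forward strand: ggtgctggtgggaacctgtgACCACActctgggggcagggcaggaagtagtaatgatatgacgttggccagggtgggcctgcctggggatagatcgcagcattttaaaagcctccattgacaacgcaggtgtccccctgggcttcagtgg

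The RUNX core was found in 3 of the 9 promoters, those of *Gzmb*, *Gzma* and *Prf1*, and in 8.4% of all 32851 promoters over the same window. Its 2 matches in *Gzmb* began 93 and 34 bases before the start. The TATA box was found in the promoters of *Ifng*, *Tnf*, *Ifnb1* and *Il2*, 4 of the 9, against 7.57% of all. The NFAT core was in those of *Tnf*, *Gzma*, *Ifnb1* and *Il2*, against 11.8%, and its match in *Gzma* overlapped the one to the interferon regulatory factor motif (1 of 9, against 1.59%). The NF-κB motif, searched as GGG, any 3 bases and TTCC, was found in *Gzmk* and *Ifnb1*, against 3.05% of all. The AP-1 motif was in *Gzmb* alone, against 4.24%, and the T-box motif GGTGTGA was in *Gzmk* alone, against 1.92%. These matches describe letters in a window and say nothing of binding.

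*Ifng* (chr10:118441046-118445892, GRCm38, forward strand), the gene of IFNγ, was found in CD8+, CD4+ and NK cells. In CD8+ T cells there were 226 control and 469 Dnmt1iECKO UMIs, giving 126 (110 to 143) against 65.7 (59.9 to 71.9) CPM, a log2 difference of −0.93 (−1.17 to −0.70). A UMI was found in 54 of 156 control and 146 of 626 Dnmt1iECKO CD8+ T cells (34.6% and 23.3%), and in 18.2% (12.4 to 25.2) and 8.67% (6.58 to 11.2) after thinning. Both the level and the share of cells were lower in the Dnmt1iECKO library. CD4+ T cells had 106 and 254 UMIs, or 126 (103 to 153) against 64.6 (56.9 to 73.1) CPM, a log2 difference of −0.97 (−1.30 to −0.63). Of these, 25 control UMIs came from 2 cells of a cluster led by cell cycle genes, called the cycling cluster below, and outside it the levels were 100 against 61.5 CPM, a log2 difference of −0.71 (−1.08 to −0.32). The share of CD4+ T cells with a UMI was 14.7% and 15.7% at full depth, and 10.8% and 6.63% after thinning. The make-up of this class differed. A *Lef1*-led cluster held 32.4% of control and 44.2% of Dnmt1iECKO CD4+ T cells, and a *Tnfsf8*-led cluster 60.8% and 50.4%. All cells of the *Tnfsf8*-led cluster had 123 against 63.0 CPM of *Ifng* (−0.96). The *Lef1*-led cluster also held 0.641% of control and 5.27% of Dnmt1iECKO CD8+ T cells. The part of the make-up in the ratios of CD4+ and CD8+ T cells was not tested.

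Over all cells, NK cells had the highest *Ifng* level of the 5 classes in both libraries, with 153 (115 to 198; 56 UMIs) against 156 (134 to 181; 172 UMIs) CPM. In the control library this interval overlaps those of CD8+ and CD4+ T cells, and in the Dnmt1iECKO library it does not. The log2 ratio in NK cells was 0.03 (−0.41 to 0.49), but 1 cell held 26 of the control UMIs and 1 cell 38 of the Dnmt1iECKO ones. Without the top cell of each class and library, the NK level was 84.1 (56.7 to 120) against 123 (103 to 145) CPM, a log2 ratio of 0.54 (−0.04 to 1.17). NK cells then stood below CD8+ (109) and CD4+ T cells (98.5) in the control library, with overlapping intervals, and above them (61.8 and 53.1) in the Dnmt1iECKO library. *Foxp3*+ T cells held 3 and 19 UMIs (8.12 and 15.3 CPM), a ratio of 0.92 (−0.85 to 3.32). C1q macrophages held 4 and 1 UMIs, but their gate drops any cell with a *Cd3d*, *Cd3e* or *Cd3g* UMI. The other cells of macrophage-like clusters held 0 and 26 UMIs, of which 1 cell held 14. As a measure of free RNA, no UMI of *Ifng* was found in 247 control and 112 Dnmt1iECKO alveolar epithelial-like cells (medians of 18897 and 22887 UMIs). For each of the 10 genes taken alone, at most 1.02% of these cells in a library had a UMI after thinning. At full depth *Tnf* was found in 1 and 3 of them, *Gzma* in 1 and 2, *Il10* in 4 and 1 and *Il2* in 3 and 0. The alveolar gene *Sftpc* was found in 32.1% of control and 12.5% of Dnmt1iECKO CD8+ T cells. In C1q macrophages it was 57.6% and 32.7%, so free RNA of other genes was present and differed between libraries.

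*Ifng* UMIs lay unevenly among cells. In CD8+ T cells, the 14 control cells with at least 5 UMIs held 68.6% of all *Ifng* UMIs, and the 25 such Dnmt1iECKO cells held 53.9%, with up to 31 and 30 UMIs in 1 cell. Thinned CD8+ T cells with an *Ifng* UMI (28 control and 54 Dnmt1iECKO, against 126 and 569 without) more often had the checkpoint gene *Pdcd1*, in 64.3% against 27.8% of cells without *Ifng* in the control and 59.3% against 24.6% in the Dnmt1iECKO library. *Fasl* was found in 39.3% of control CD8+ T cells with *Ifng* and 14.3% of those without, and in 48.1% and 20.9% of the Dnmt1iECKO cells.

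Within CD8+ T cells with a *Pdcd1* UMI (66 and 249), *Ifng* was also lower in the Dnmt1iECKO library. It was 226 against 122 CPM, a log2 difference of −0.89 (−1.14 to −0.63), and 33.3% and 18.6% of thinned cells had a UMI. CD4+ T cells with *Pdcd1* (39 and 139) had 150 against 132 CPM, a log2 difference of −0.19 (−0.64 to 0.28), an interval that holds 0. These groups rest on single UMIs at full depth, so a cell of few UMIs can be missed.

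*Tnf* (chr17:35199381-35202007, reverse strand), the gene of TNFα, was a macrophage transcript in both libraries. C1q macrophages held 2878 and 5050 UMIs, or 456 (439 to 473) against 376 (365 to 386) CPM, a log2 difference of −0.28 (−0.35 to −0.21), in 39.3% and 34.2% of thinned cells. Cells of the *Gpnmb*-led cluster had 795 against 658 CPM, a log2 difference of −0.27, and cells of the *Ccl8*-led cluster had 220 against 245 CPM, a log2 difference of 0.15 (0.03 to 0.27). These clusters held 40.2% and 53.3% of the control and 30.2% and 63.3% of the Dnmt1iECKO C1q macrophages. Macrophages led by *Chil3*, outside the C1q gate, had 333 and 333 CPM, and monocyte-like cells 187 and 168. The cluster where *Tnf* stood highest thus made up a smaller part of the Dnmt1iECKO macrophages.

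Among lymphocytes *Tnf* stood well below its level in macrophages. CD8+ T cells had 21.7 and 15.6 CPM (39 and 111 UMIs), a log2 ratio of −0.48 (−1.02 to 0.09), or −0.14 without the top cell of each library. Among those with *Pdcd1* it was 32.8 against 18.6 CPM (−0.82). In CD4+ T cells the level was 41.7 and 22.9 CPM (35 and 90 UMIs), a ratio of −0.86 (−1.44 to −0.26), and with *Pdcd1* it was 55.9 and 19.9 CPM (−1.49). *Foxp3*+ T cells had 7 and 17 UMIs. In NK cells 0 control and 4 Dnmt1iECKO UMIs were found, where 3 counts would be 8.19 and 2.72 CPM. ECs held 69 and 63 UMIs in 4574 and 1904 cells, at 1.31 and 2.68 CPM, and 1 Dnmt1iECKO cell held 22 of them.

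*Ifnb1* (chr4:88522025-88522774, reverse strand) had 34 UMIs in the control and 45 in the Dnmt1iECKO cells that passed the filters. All but 6 of them lay in C1q macrophages, at 4.44 CPM (2.95 to 6.41) in 8 cells and 3.35 CPM (2.44 to 4.48) in 14 cells, a log2 ratio of −0.41 (−1.12 to 0.33). One cell held 16 of the 28 control UMIs and one held 15 of the 45 Dnmt1iECKO ones, and without these cells the ratio was 0.23. T cells, NK cells and ECs had none, and for ECs 3 counts would be 0.0571 and 0.128 CPM. The other 6 control UMIs were in 1 cell outside the leukocyte clusters.

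*Il2* (chr3:37120523-37125959, reverse strand, opposite *Adad1*) was highest in CD4+ T cells among the 5 classes, with 10 UMIs in the control and 82 in the Dnmt1iECKO library. The levels were 11.9 (5.71 to 21.9) against 20.9 (16.6 to 25.9) CPM, a log2 difference of 0.81 (−0.14 to 1.92), and 6.86% and 6.14% of cells had a UMI at full depth. In the Dnmt1iECKO library 2 cells held 22 and 18 of the UMIs, while no control cell held more than 2. CD8+ T cells had 4 and 15 UMIs, at 2.22 and 2.10 CPM. In CD4+ T cells with *Pdcd1*, *Il2* stood at 11.8 against 39.2 CPM, a log2 difference of 1.74 (0.31 to 3.66).

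*Il10* (chr1:131019845-131024974, forward strand) had its highest level in *Foxp3*+ T cells, with 53 and 174 UMIs, though in the control library the interval overlapped that of macrophages. The levels were 143 (107 to 188) against 141 (120 to 163) CPM, a log2 difference of −0.03 (−0.48 to 0.44), and 26.7% and 28.4% of cells had a UMI at full depth. C1q macrophages held more of its UMIs at a lower level, 641 and 559, or 102 (93.8 to 110) against 41.6 (38.2 to 45.2) CPM, a log2 difference of −1.29 (−1.45 to −1.12). The share of macrophages with a UMI was 30.4% and 17.7% at full depth, and 11.2% and 5.54% after thinning. *Il10* was lower in the Dnmt1iECKO library in both clusters, with 136 and 54.5 CPM in the *Ccl8*-led (−1.32) and 64.0 and 10.5 in the *Gpnmb*-led cluster (−2.60). In CD4+ T cells it stood at 19.1 against 22.4 CPM (16 and 88 UMIs), a log2 difference of 0.23. There 1 control cell held 11 of the UMIs and 1 Dnmt1iECKO cell 16. Without the top cell of each library the levels were 6.02 against 18.4 CPM, a log2 ratio of 1.61 (0.32 to 3.28). In NK cells no UMI was found.

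*Gzmb* (chr14:56258838-56262260, reverse strand), the gene of granzyme B, stood highest in NK cells. They held 868 and 1841 UMIs, or 2369 (2214 to 2532) against 1670 (1595 to 1748) CPM, a log2 difference of −0.50 (−0.62 to −0.39), in 90% and 76.6% of thinned cells. *Foxp3*+ T cells had 517 (446 to 596) against 342 (310 to 376) CPM, a log2 difference of −0.60 (−0.85 to −0.34), which was −0.30 without the top cell of each library (60 and 56 UMIs). In contrast, CD8+ T cells had 128 (112 to 145; 230 UMIs) against 188 (179 to 199; 1345 UMIs) CPM, a log2 difference of 0.56 (0.36 to 0.77), with a UMI in 11.7% and 15.7% of thinned cells. Among CD4+ T cells it was 20.2 and 13.5 CPM, and 6.01 and 8.16 without the top cell of each library.

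The ratio in CD8+ T cells differed between dividing cells and the rest. In the cycling cluster, 7 control cells held 100 of the 230 control UMIs, and there *Gzmb* had 466 against 286 CPM, a log2 difference of −0.70 (−1.06 to −0.34). Outside this cluster the levels were 82.0 against 178 CPM, a log2 difference of 1.12 (0.85 to 1.39). Cells with *Pdcd1* had 182 against 299 CPM, a log2 difference of 0.72. By cluster, all cells of the *Nkg7*-led lymphoid cluster had 193 and 408 CPM (1.08), and those of the *Tnfsf8*-led cluster 172 and 101 (−0.76).

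**Figure D2:**
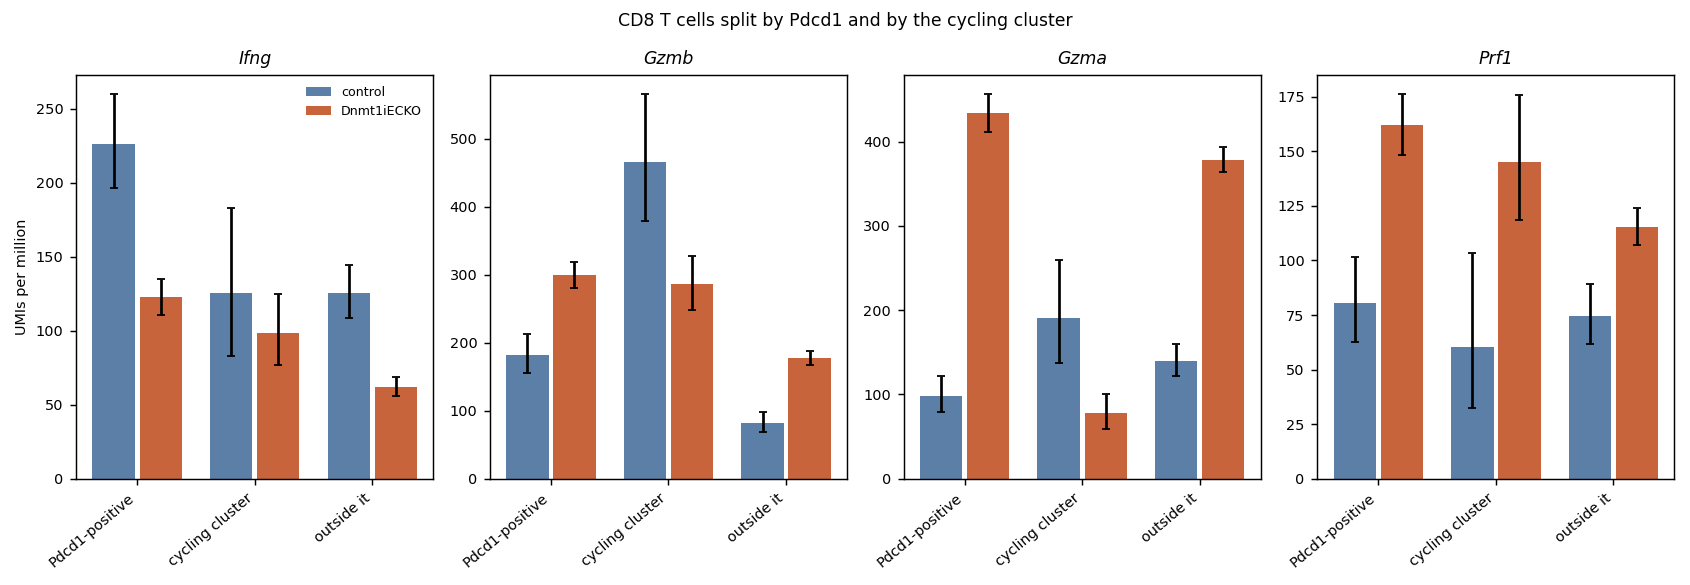
Levels of *Ifng*, *Gzmb*, *Gzma* and *Prf1* in 3 groups of CD8+ T cells (with *Pdcd1*, of the cycling cluster and outside it), as bars of CPM from 0 for the control and Dnmt1iECKO libraries, with exact 95% intervals as error bars. In cells with *Pdcd1*, *Ifng* stood at 226 CPM in the control and 122 in the Dnmt1iECKO library, whereas *Gzma* stood at 98.5 and 434.

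*Gzma* (chr13:113093825-113100981, reverse strand), the gene of granzyme A, had 9985 (9664 to 10314) against 9057 (8880 to 9236) CPM in NK cells, a log2 difference of −0.14 (−0.20 to −0.09), and was found in 94.2% and 93.7% of them at full depth. CD8+ T cells had 263 and 2489 UMIs, or 146 (129 to 165) against 349 (335 to 363) CPM, a log2 difference of 1.26 (1.07 to 1.44). Up to 78 and 324 UMIs came from 1 cell, and 6.49% and 13.6% of thinned cells had a UMI. CD8+ T cells with *Pdcd1* had 98.5 against 434 CPM, a log2 difference of 2.14 (1.83 to 2.47), and those of the cycling cluster 191 and 77.5 (−1.30). CD4+ T cells held 45 and 81 UMIs, of which 1 cell held 39 and 76, and *Foxp3*+ T cells held 0 and 4.

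*Prf1* (chr10:61297833-61304680, forward strand), the gene of perforin, was likewise highest in NK cells and next in CD8+ T cells. NK cells had 2418 (2262 to 2583) against 2024 (1941 to 2110) CPM, a log2 difference of −0.26 (−0.37 to −0.14), in 90% and 87.7% of thinned cells. CD8+ T cells had 72.8 (60.9 to 86.4) against 118 (110 to 126) CPM, a log2 difference of 0.70 (0.43 to 0.98), with 10.4% and 17.2% of thinned cells. With *Pdcd1* the levels were 80.4 and 162 CPM (1.01). CD4+ T cells held 17 and 38 UMIs, at 20.2 and 9.67 CPM (−1.07), and *Foxp3*+ T cells 6 and 5 UMIs, at 16.2 and 4.04 CPM (−2.01).

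*Gzmk* (chr13:113171608-113225908, reverse strand), the gene of granzyme K, lies opposite *Esm1*, which ECs express. CD8+ T cells had 43.3 (34.2 to 54.1; 78 UMIs) against 57.7 (52.3 to 63.6; 412 UMIs) CPM, a log2 difference of 0.41 (0.06 to 0.78), which was 0.91 without the top cell of each library (26 and 20 UMIs). They held 70.3% and 72.9% of all its UMIs. CD4+ T cells had 2 and 31 UMIs, NK cells 3 and 11, *Foxp3*+ T cells 1 and 4 and C1q macrophages 1 and 4. The 6 and 12 UMIs in ECs are uncertain because of the overlap.

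In single CD8+ T cells, *Gzmb* was found together with *Gzma* in both libraries and with *Prf1* in the Dnmt1iECKO library. Thinned CD8+ T cells with a *Gzmb* UMI numbered 18 in the control and 98 in the Dnmt1iECKO library. Of these, 33.3% and 56.1% had *Gzma*, against 2.94% and 5.71% of those without *Gzmb*. *Prf1* was found in 22.2% and 36.7%, against 8.82% and 13.5%. The control intervals for *Prf1* overlapped (6.41 to 47.6 and 4.64 to 14.9). For *Gzmk* the shares were 5.56% (1 cell) against 4.41% in the control and 34.7% against 4.76% in the Dnmt1iECKO library. At least 3 of the 6 cytotoxic genes (the granzymes, *Prf1*, *Fasl* and *Ifng*) were found in 90.0% and 80.5% of thinned NK cells and in 5.84% and 13.2% of CD8+ T cells. None of the 6 was found in 58.4% and 55.5% of CD8+ T cells.

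*Fasl* (chr1:161780689-161788495, reverse strand), the gene of FasL, had ratios near 0 in NK and CD8+ T cells. NK cells had 475 (407 to 551) against 474 (434 to 516) CPM, a log2 difference of 0.00 (−0.25 to 0.25), and CD8+ T cells 132 (116 to 150) against 136 (128 to 145) CPM, a log2 difference of 0.05. CD4+ T cells had 101 against 89.5 CPM, a log2 difference of −0.18, and *Foxp3*+ T cells 13.5 and 13.7. CD8+ T cells with *Pdcd1* had 197 and 205 CPM, whereas CD4+ T cells with *Pdcd1* had 177 against 125 CPM, a log2 difference of −0.49 (−0.92 to −0.05). C1q macrophages held 0 and 2 UMIs.

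**Figure D3:**
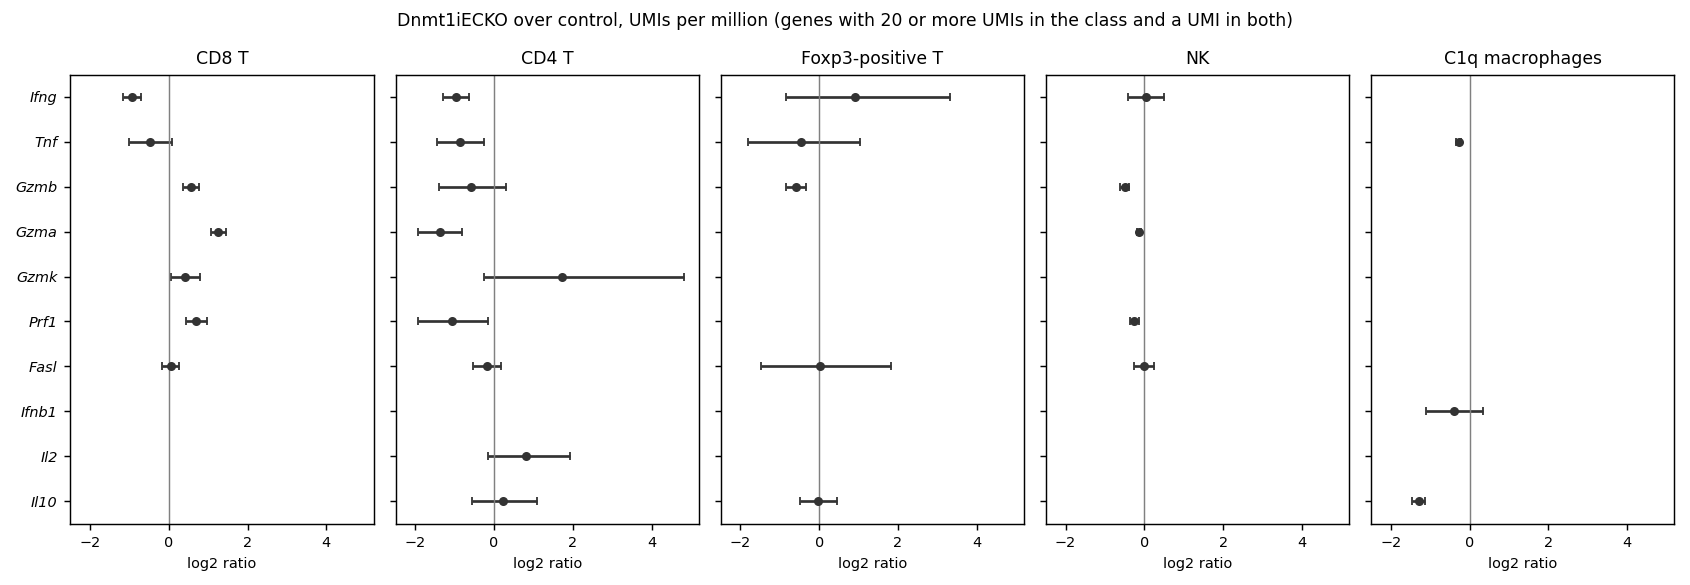
Log2 ratio of the Dnmt1iECKO over the control level of each gene in each immune class, for genes with at least 20 UMIs in the class, with the exact 95% interval as a bar. In CD8+ T cells *Ifng* lay at −0.93 and *Gzma* at 1.26, in NK cells *Gzmb* lay at −0.50, and *Il10* in C1q macrophages at −1.29.

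Read against all genes with at least 20 UMIs in a class, the share of these genes past 2-fold was as follows. In CD8+ T cells 7 of the 10 genes had 20 UMIs, of which 1 (*Gzma*) was at least 2-fold higher, against 3.27% of 10634 genes, and 0 were at least 2-fold lower, against 2.88%. In CD4+ T cells, of 9 genes, *Gzmk* (1.73, interval −0.25 to 4.84, on 2 control UMIs) was higher (7.15% of 9703) and *Gzma* and *Prf1* were lower (2.44%). In *Foxp3*+ T cells 0 of 5 were past 2-fold (6.68% higher and 2.72% lower of 7512), and in NK cells 0 of 5 (5.43% and 3.16% of 7112). In C1q macrophages 0 of 3 were higher (2.36% of 12148) and *Il10* was lower (3.88%). The median log2 ratio over the genes with 20 UMIs was 0.41 in CD8+ T cells, −0.59 in CD4+, −0.03 in *Foxp3*+, −0.14 in NK cells and −0.41 in macrophages. Over all genes these medians were −0.04, 0.03, 0.02, −0.01 and 0.04. In CD8+ T cells with *Pdcd1*, 2 of 7 were at least 2-fold higher (3.78% of 9445) and 0 lower (3.75%).

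The question of which cells could supply these cytokines to ECs was addressed by dividing all UMIs of a gene in the filtered cells of a library among the classes. These shares depend on how many leukocytes passed the gate. For *Ifng*, T and NK cells held 95.2% of 479 control UMIs and 91.6% of 1094 Dnmt1iECKO UMIs. CD8+ T cells held 47.2% (42.6 to 51.8) and 42.9%, CD4+ T cells 22.1% and 23.2%, and NK cells 11.7% and 15.7%. For *Tnf*, macrophages held 87.7% of 5534 and 87.1% of 12058 UMIs, and T and NK cells 1.70% and 2.55%. NK cells held 80.2% and 66.6% of *Gzma*, 74.7% and 64.5% of *Prf1* and 59.3% and 42.3% of *Gzmb* UMIs. CD8+ T cells held 5.76% and 16.6% of *Gzma*, 11% and 24.4% of *Prf1* and 15.7% and 30.9% of *Gzmb* UMIs, and also the largest share of *Fasl* among the 5 classes, at 39.5% and 44.7%. For *Il10*, macrophages held 76.0% and 56.8% and *Foxp3*+ T cells 4.93% and 13.6%.

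ECs themselves held few of these UMIs. They were gated on a *Cdh5* UMI and no UMI of *Ptprc*, *Epcam*, *Cspg4* or *Myh11*. This gate removed cells with *Ptprc* beforehand, so low counts of leukocyte genes were in part set by it. In 4574 control and 1904 Dnmt1iECKO ECs, *Ifng* had 1 and 2 UMIs, *Gzmb* 4 and 12, *Fasl* 3 and 8 and *Ifnb1* 0 and 0. ECs held 1.25% and 0.522% of all *Tnf* UMIs. Of the 3 members with at least 20 UMIs in ECs, *Tnf* and *Gzma* (10 and 39 UMIs) were at least 2-fold higher (3.65% of 15379 genes) and none was lower (2.27%), and 1 Dnmt1iECKO cell held 13 of the *Gzma* UMIs. Without the top cell of each library, *Tnf* had 1.24 against 1.75 CPM in ECs, a log2 ratio of 0.50 (−0.10 to 1.08) that is no longer past 2-fold, while *Gzma* (9 and 26 UMIs) still was. However, 2 Dnmt1iECKO ECs together held 23 of the 39 *Gzma* UMIs. Among leukocyte genes, *C1qa* was found in 1.33% of control and 4.46% of Dnmt1iECKO ECs and *Nkg7* in 0.284% and 0.998%. *Cd68* was found in 3.85% and 3.73%. The part of leukocyte RNA in the differences in ECs was not tested. Receptors of these cytokines with at least 20 UMIs in ECs had log2 differences between −0.18 and 0.70. *Ifngr1* had 152 and 153 CPM (0.01), *Ifngr2* 99.4 and 88.1 (−0.18, with an interval of −0.25 to −0.10), *Tnfrsf1a* 172 and 162 (−0.09) and *Fas* 206 and 202 (−0.02). *Tnfrsf1b* had 5.80 against 9.45 CPM, a log2 difference of 0.70 (0.45 to 0.96). The type I interferon receptor genes *Ifnar1* and *Ifnar2* had 75.9 and 88.9 CPM (0.23) and 186 and 201 CPM (0.11). *Il10rb* had 60.1 and 56.9 CPM and *Il2rg* 122 and 130, while *Il10ra* had 7 and 8 UMIs, *Il2ra* 1 and 6 and *Il2rb* 4 and 6. Of the 12 receptors, 9 had at least 20 UMIs in ECs and none was past 2-fold, with a median of 0.01.

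Other genes of the pathways came from lists of further effectors, lymphocyte cytokines, inducers of IFNγ, transcription factors, receptors and inhibitors. In CD8+ T cells the cytokine list had 9 of 15 genes with at least 20 UMIs. Of these, 2 were at least 2-fold higher (3.27% of all 10634 genes) and none lower (2.88%). The median log2 ratio of the 9 was 0.35, with 2 intervals above 0 and 2 below. The chemokine gene *Xcl1* had 100 against 236 CPM, a log2 difference of 1.24 (1.02 to 1.47), with 449 of its 1685 Dnmt1iECKO UMIs in 1 cell, and *Csf2* had 0 and 26 UMIs, of which 1 cell held 16. Of the 10 transcription factors none was past 2-fold. Their median was −0.17, with 1 interval above 0 and 1 below. The interval above was that of *Eomes*, which drives granule genes in NK and memory CD8+ T cells. It had 32.2 against 62.8 CPM, a log2 difference of 0.96 (0.57 to 1.38). Its part in the levels of the granule genes was not tested. Of the 8 inhibitors with 20 UMIs none was past 2-fold, and the cytokine signaling inhibitors *Socs3* (100 and 59.1 CPM, −0.76) and *Socs1* (104 and 75.5 CPM, −0.46) were the lowest of the list beside *Serpinb1a*. None of the 9 further effectors was past 2-fold, with a median of −0.02. Among receptors, *Ifngr2* had 61.1 against 106 CPM, a log2 difference of 0.80 (0.51 to 1.10). Over the 12 receptors the median was −0.05, with 3 intervals above 0 and 3 below.

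In CD4+ T cells, 6 of the 9 transcription factors with 20 UMIs had intervals below 0 (8.58% of all 9703 genes) and 1 above (7.9%), with *Id2* at 497 and 264 CPM (−0.91) and *Tbx21*, which drives *Ifng* in helper T cells, at 91.7 against 52.4 CPM, a log2 difference of −0.81 (−1.19 to −0.41). The granzyme inhibitor *Serpinb9* had 144 and 82.9 CPM (−0.80), and *Il17a* had 19 and 8 UMIs in 5 cells each (−3.47). The clusters that made up the CD4+ class differed in share between the libraries, as given above. In NK cells, 0 of 5 cytokine genes were past 2-fold, with *Ccl4* at 1059 and 1488 CPM (0.49) and *Xcl1* at 224 and 334 (0.58). Of the 9 further effectors in NK cells 2 were at least 2-fold lower (3.16% of all 7112 genes). They were *Tnfsf10* (9 and 11 UMIs) and *Gzmc*, whose 389 control UMIs lay in 1 cell. In *Foxp3*+ T cells *Nkg7*, a granule protein, had 466 against 198 CPM, a log2 difference of −1.23 (−1.52 to −0.94), and *Ccl4* had 113 and 13 UMIs, of which 1 control cell held 102. The share of these cells with *Nkg7* was not lower, at 43.3% and 47.7% at full depth. The *Foxp3* gate did not exclude *Cd8a*, which was found in 6.67% and 1.14% of them.

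C1q macrophages expressed 6 of the 7 inducers of IFNγ with at least 20 UMIs. Of these, 0 were at least 2-fold higher (2.36% of all 12148 genes) and 1 lower (3.88%). Their median log2 ratio was 0.27. The subunit gene of IL-23, *Il23a*, had 154 against 20.6 CPM, a log2 difference of −2.90 (−3.10 to −2.71), in 31 and 31 cells. *Il12b*, whose product is shared by IL-12 and IL-23, had 23.1 against 44.7 CPM, a log2 difference of 0.95 (0.69 to 1.22), in 11 and 35 cells. *Il27* had 7.76 and 12.4 CPM (0.67), *Il18* 41.3 and 50.7 (0.29) and *Il15* 17.6 and 18.5 (0.07). ECs had 22.9 and 31.4 CPM of *Il15*, which sustains NK cells, a ratio of 0.45 (0.32 to 0.59). The chemokine genes *Ccl3*, *Ccl4* and *Ccl5* in macrophages had ratios of −0.43, −0.39 and −0.30.

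The genes most like each member were found from the correlation of log2(CPM + 1) over 28 points, the classes of both libraries. The points share libraries and depths, and the values are a description. For *Ifng* they were *Btbd11* (r = 0.97), *Ctsw* and *Gm2682* (0.96 each), and for *Tnf* *Mthfsl* (0.93), *Ucp2* and *Ctss* (0.91 each). For *Gzmb* they were *Klrg1* (0.95), *Sytl3* and *Il2rb* (0.94 each), for *Prf1* *Gm14029* (0.96), *Samd3* (0.95) and *Klra4* (0.94), and for *Fasl* *Cd160*, *Sytl3* and *Gm14029* (0.94 each). For *Gzmk* *Cd160* was nearest (0.93), for *Il2* *Cd40lg* (0.93) and for *Il10* *Grhl1* (0.78). Between members r was 0.96 for *Ifng* and *Fasl*, 0.94 for *Gzma* and *Prf1* and −0.26 for *Ifng* and *Tnf*.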

How the data were processed

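Per the labels, live CD31+/CD45- cells were profiled with the GEM-X 3′ v4 kit. What the authors deposited are raw counts of UMIs for each gene in each cell, which Cell Ranger 9.0.1 made with the mm10 reference. Cells with fewer than 500 detected genes or over 10% mitochondrial counts were removed, since the 9000 detected genes of the study's filter are reached by 28 and 52 of the 9301 and 9522 cells. The highest Scrublet scores, 0.4% per 1000 cells, were removed as doublets. Both libraries were clustered together in scanpy 1.11.5 (Python 3.11.15) with 2000 variable genes without the members, 30 components and a resolution of 1.0, and leukocyte clusters were those where over 50% of cells had *Ptprc*. Single-cell gates defined the classes. Restricting T and NK gates to lymphoid clusters was decided after seeing the data.

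Counts were summed by class and scaled to CPM. Intervals at 95% (scipy 1.17.1) are exact Poisson for CPM, Clopper-Pearson for shares and conditional on the summed counts for ratios. Comparisons took genes with at least 20 UMIs in a class, and 2-fold was the size used to count genes. The design tests none of these differences. The ratio and its interval were run on simulated counts, drawn independently for each gene around the class sums. The interval held the true ratio for 96% of changed genes in CD8+ T cells and 96.5% in C1q macrophages. Since the interval assumes such counts, that run cannot show how it behaves where a few cells hold most UMIs.

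All 10 genes are named in each class whatever their values. From each fixed list a gene could be named when it had at least 20 UMIs and was among the 3 highest or 3 lowest ratios, or was a receptor in ECs. For members with at least 100 UMIs, the 3 genes of most similar pattern were taken among those with at least 200 UMIs. The 10 genes and the lists were chosen with earlier results of these data known. Gene positions are those of GENCODE M21 on GRCm38, and promoters are from RefSeq on GRCm38.p6. The bulk RNA-seq and the lung EC atlas of the study were not used here, and results that need 1 withheld gene are not reported here. Alternatives were other filters, doublet rates, resolutions, gates, thinning depths and means over single cells, with 3 added after seeing the data.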

Additional observations from a re-analysis of the deposited data

Results flagged for a closer look

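Some of the 10 genes were higher in the Dnmt1iECKO library in 1 class and lower in another, with intervals of counting error that did not hold 0. Such differences between classes were not tested, since each condition has 1 library. *Gzmb* had a log2 ratio of the Dnmt1iECKO over the control level of 0.56 in CD8+ T cells, against −0.60 in *Foxp3*+ T cells and −0.50 in NK cells. It was −3.90 in C1q macrophages, where 1 control cell held 7 UMIs and the Dnmt1iECKO library had 1. *Gzma* had 1.26 in CD8+ T cells, against −1.38 in CD4+ T cells, where 1 cell held most UMIs of each library, and −0.14 in NK cells. *Prf1* had 0.70 in CD8+ T cells, against −1.07 in CD4+, −2.01 in *Foxp3*+ T cells (6 and 5 UMIs) and −0.26 in NK cells.

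In cells of thymocyte-led clusters, which belong to none of the 5 immune classes and were found only in the Dnmt1iECKO library, 552 *Gzma* UMIs (179 CPM) lay in 66 of 258 cells (25.6%), with up to 69 in 1 cell.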

How the results depend on the processing

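No paired analysis was possible because each condition has 1 library, and for the same reason no replicate could be left out. Over 15 results, 210 alternative values were computed, of which 175 moved by less than the counting interval and 35 moved by more. The sign differed in 16, namely 8 for *Ifng* in NK cells (−0.26 to 0.87, against 0.03) and 8 for *Il10* in *Foxp3*+ T cells (−0.04 to 0.43, against −0.03), both with reported intervals that hold 0. The log2 ratio of *Ifng* ranged from −1.06 to −0.80 in CD8+ and from −0.99 to −0.68 in CD4+ T cells.

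The ratio of *Gzmb* in CD8+ T cells was 1.06 with at least 200 genes per cell, 1.16 with 1000, 1.04 with doublets at 0.8%, 1.12 at a resolution of 0.5, 0.89 as a mean over single cells, 0.79 without the top cell and 1.12 without the cycling cluster (these last 2 chosen after seeing the data). Under the first 4, 7 to 11 control cells left the CD8+ class, among them the 7 of the cycling cluster, and took 100 to 102 *Gzmb* UMIs with them. Of the 22 such Dnmt1iECKO cells, 20 left with 1000 genes and all 22 under the other 3. Of all CD8+ T cells that left, 7 or 8 control and 20 to 22 Dnmt1iECKO cells then lay in thymocyte-led clusters. Cells of those clusters are left out of the 5 classes. In *Foxp3*+ T cells *Gzmb* was −0.26 as a mean over single cells and −0.30 without the top cell. In NK cells it was −0.38 with a mitochondrial limit of 5%, −0.20 without doublet removal and −0.74 with gates in all leukocyte clusters (chosen after seeing the data). *Prf1* in NK cells was −0.0044 without doublet removal, −0.38 with doublets at 0.8%, −0.39 with gates on all cells and −0.49 with gates in all leukocyte clusters. *Ifng* in NK cells was 0.87 with 5% mitochondrial counts and 0.54 without the top cell. *Tnf* in macrophages was −0.11 with broad markers.

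The share of CD8+ T cells with an *Ifng* UMI was 9.68% and 4.63% when thinned to 1000 UMIs and 34.6% and 23.3% at full depth. CD8+ T cells held 41.0% and 36.7% of *Ifng* UMIs with 200 genes, 42.1% and 37.4% with 1000, 37.6% and 38% with doublets at 0.8%, 41.5% and 36.5% at resolution 0.5 or without the cycling cluster, and 46.4% in the Dnmt1iECKO library with gates on all cells. NK cells held 6.64% in the control with 5% mitochondrial counts. For most of these moves the cause was not tested.

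With 1 library per condition, differences between mice, tumors, sorting and genotype cannot be told apart. In *Foxp3*+ T cells of the control library, 1 UMI was 2.71 CPM, so ratios of genes near 3 counts there, such as that of *Ifng* (0.92, interval −0.85 to 3.32), are poorly determined.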

Other observations

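Outside the leukocyte clusters, some of these genes had most of their UMIs in a few cells. In the control library 4 such cells held 330 of 346 *Gzma* UMIs, and all 4 had a *Ptprc* UMI. In the Dnmt1iECKO library 1 cell held 135 of 216 *Il10* UMIs and another 25 of 47 *Ifng* UMIs. Others were spread over more cells, with 19 *Gzmk* UMIs in 15 control and 30 in 23 Dnmt1iECKO cells, and 21 *Fasl* UMIs in 12 and 39 in 22 cells. *Tnf* had 179 UMIs in 83 control cells, of which 1 held 53, and 186 in 89 Dnmt1iECKO cells. *Il2* had 28 UMIs in 28 control cells and 23 in 22 Dnmt1iECKO cells. Of the *Il2* UMIs, 15 and 13 were in ECs, which made up 28.3% and 8.02% of all *Il2* UMIs in the filtered cells of the libraries. These shares lay below the share of ECs among those cells, at 58.9% and 24.3%. The *Il2* level in ECs was 0.285 and 0.553 CPM, against 11.9 and 20.9 in CD4+ T cells.

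Macrophages led by *Chil3* had 62 control and 5 Dnmt1iECKO UMIs of *Il10*, at 18.4 and 0.792 CPM, and 2 control cells held 57 of them. Thinned C1q macrophages with a *Tnf* UMI had *Il10* in 12.9% of control and 6.08% of Dnmt1iECKO cells, against 10.2% and 5.26% of those without *Tnf*.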
